A study of Mus musculus with 20 samples.

Results

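The 36 genes described here encode aminoacyl-tRNA synthetases, the enzymes that join each amino acid to its tRNA. They were taken by name from a list of 20 synthetases of the cytosol (Aars to Yars) and 16 of the mitochondrion (names ending in 2), out of 42374 annotated genes. The names are those of the mouse GENCODE annotation on GRCm38, in which Aars stands for the gene that newer annotations call Aars1, and so on. RNA was sequenced from endothelial cells, the cells that line blood vessels, sorted from mouse skeletal muscle as positive for CD31 and negative for CD45. Soleus served as the oxidative muscle and extensor digitorum longus as the glycolytic one, and the strain was C57BL/6N. The 4 groups of 5 libraries were glycolytic WT, oxidative WT, glycolytic ECKO and oxidative ECKO, where ECKO stands for deletion of Atf4 in endothelial cells. All mice, controls included, received 1 mg tamoxifen a day for 5 days from an age of 8 to 10 weeks, with at least 7 days before the experiment, and the WT mice were littermates without Cre. The Cre driver and the number and sex of the animals behind a library are not given in the sources used here, so a p-value speaks only to how far these libraries scatter, and part of that scatter may be technical.

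A cytosolic synthetase charges the tRNAs that serve ribosomes translating nuclear mRNAs, while a mitochondrial synthetase is imported into the organelle and charges the tRNAs encoded by mitochondrial DNA. Most amino acids have a separate nuclear gene for each compartment. Gars and Kars are exceptions in which 1 gene gives both enzymes, and Eprs holds the glutamyl and the prolyl enzyme in 1 protein. ATF4, a transcription factor, acts in the integrated stress response and is made when translation initiation is slowed by amino acid shortage or other stress, and its known targets in mouse fibroblasts include many cytosolic synthetases and amino acid transporters.

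The libraries held between 8013223 and 21720127 estimated counts. Atf4 itself had a mean of 262 CPM (counts scaled to a common library total) in glycolytic WT and 554 CPM in oxidative WT, against 7.38 CPM in glycolytic ECKO and 8.29 CPM in oxidative ECKO, and no ECKO library exceeded 8.7 CPM. All 8 endothelial markers examined were found in every group, with a summed level of 7252 to 7378 CPM in glycolytic WT, 6546 to 6846 in oxidative WT, 5769 to 5878 in glycolytic ECKO and 6770 to 7062 in oxidative ECKO. Immune markers moved with the groups: 15 genes summed to 38 to 45.2 CPM in glycolytic WT, 384 to 491 in oxidative WT, 22.6 to 24.6 in glycolytic ECKO and 54.3 to 115 in oxidative ECKO. None of these 15 genes was at 0 in a whole group. Muscle fibre markers summed to 60.7 to 67.6 CPM in glycolytic WT, 112 to 221 in oxidative WT, 145 to 149 in glycolytic ECKO and 211 to 285 in oxidative ECKO. Pericyte and smooth muscle markers summed to 849 to 864 CPM in glycolytic WT, 589 to 689 in oxidative WT, 1988 to 2054 in glycolytic ECKO and 786 to 1207 in oxidative ECKO. Fibroblast markers summed to 52.1 to 60.3 CPM in glycolytic WT, 141 to 332 in oxidative WT, 123 to 128 in glycolytic ECKO and 63 to 430 in oxidative ECKO. Y-linked RNA summed to 92.1 to 118 CPM in the 10 WT libraries and to 0.596 to 1.55 CPM in glycolytic ECKO. In oxidative ECKO it was 64.6, 65.6 and 32.2 CPM in libraries 1 to 3 and 0.932 and 1.1 CPM in libraries 4 and 5. Xist, an RNA of female cells, had at most 0.077 CPM in glycolytic WT and 0.274 in oxidative WT. Its level was 59.3 to 66.4 CPM in glycolytic ECKO. In oxidative ECKO it was 18.6, 18 and 43.8 CPM in libraries 1 to 3 and 81.5 and 76.2 CPM in libraries 4 and 5. No ECKO library matched the WT libraries in both measures, so sex and genotype cannot be told apart in either muscle. Members whose call changed without oxidative ECKO libraries 1 to 3 or without libraries 4 and 5 are named beside the results of that group.

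All 36 synthetases were measured well enough to be tested, 20 of 20 and 16 of 16. The cytosolic genes had higher levels per transcript length than the mitochondrial ones: in glycolytic WT their mean TPM, a share of all transcripts in a library corrected for their length, ran from 17.8 for Lars to 104 for Wars, while 15 of the mitochondrial genes ran from 2.22 for Mars2 to 23.4 for Fars2. Lars2 alone was listed at 822 TPM, nearly all of it from transcripts that are not annotated as protein-coding. The spread between libraries was smaller in the cytosolic class, with a median coefficient of variation of the CPM of 5.34% in oxidative WT against 11.4% for the mitochondrial class.

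Gars, Rars, Sars and Nars, which charge glycine, arginine, serine and asparagine, took the first 4 places among cytosolic synthetases in oxidative WT, at 188, 163, 155 and 150 TPM. Wars, the tryptophanyl enzyme, was first in glycolytic WT, at 104 TPM, and behind these 4 in oxidative WT, at 114 TPM. The order changed most for Qars, the glutaminyl enzyme, which stood at 40 TPM in glycolytic WT, between Farsa and Yars, and last at 27.1 TPM in oxidative WT. In both ECKO groups Aars, Cars, Lars and Iars held the last 4 places, between 12.1 and 15.1 TPM.

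**Figure D1:**
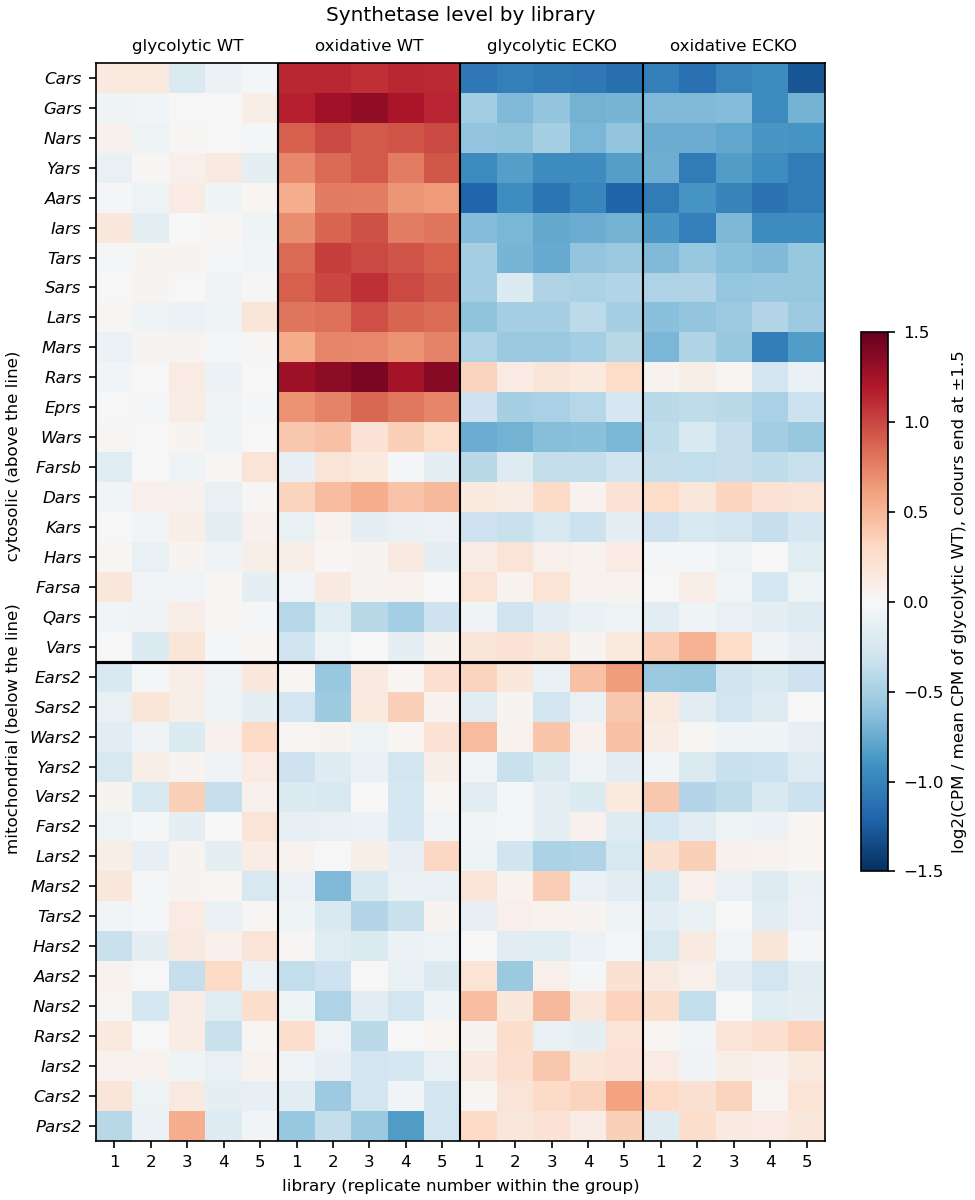
Level of the 36 synthetases in each of the 20 libraries as log2 of CPM over the mean CPM of glycolytic WT, with columns grouped by muscle and genotype, red for higher and blue for lower. The oxidative WT columns are red for 14 of the 20 cytosolic genes and the ECKO columns are blue for most of them. The mitochondrial rows are mostly paler in all 4 groups, with stronger colours in single libraries of genes such as Pars2 and Ears2.

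The first comparison asked how the endothelium of the oxidative muscle differed from that of the glycolytic muscle in WT mice. Cytosolic synthetases were higher in oxidative muscle: 14 of 20 were called higher by edgeR's quasi-likelihood test at an adjusted p below 0.05, where 16.4% of all 13971 genes tested were called higher, and 1 was called lower, where 15.9% of all genes were. Their median log2 fold change was 0.73, against 0.00 over all genes tested, and the CPM ranges of the 2 groups were apart for 15 of the 20. How many of all genes had ranges apart was not counted. Rars rose most, by 1.33 ± 0.060 (SE) on the log2 scale (adjusted p = 2.2e-15), followed by Gars at 1.23 ± 0.054 and Cars, the cysteinyl enzyme, at 1.12 ± 0.062. Sars (0.98), Nars (0.95), Tars (0.94), Lars (0.86), Yars (0.84), Iars (0.82), Eprs (0.77), Mars (0.69), Aars (0.68), Dars (0.45) and Wars (0.34) also rose. Qars fell by 0.37 ± 0.058 (adjusted p = 1.8e-05). Farsa and Farsb, the subunits of the phenylalanyl enzyme, had values of 0.04 and 0.01, Hars, the histidyl enzyme, 0.04, Kars, the lysyl enzyme, -0.08, and Vars, the valyl enzyme, -0.09, and none of these passed the test.

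Rars stood at 111, 113, 124, 107 and 114 CPM in the glycolytic WT libraries and at 274, 289, 303, 270 and 292 CPM in the oxidative WT libraries. Every oxidative library lay far above every glycolytic one. Cars stood at 55.2, 55.1, 43, 46.9 and 49.3 CPM in glycolytic WT and at 109, 109, 107, 109 and 108 CPM in oxidative WT. Its 5 oxidative libraries lay closer together than its 5 glycolytic ones, and the ranges were apart. Qars, with 56.3, 56, 62.2, 59 and 57 CPM in glycolytic WT, had 43.2, 51.3, 43.7, 40.9 and 46.8 CPM in oxidative WT. All 5 oxidative libraries lay below all glycolytic ones.

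Among the mitochondrial synthetases, none of 16 was called higher, where 16.4% of all genes were, and 2 were called lower, where 15.9% were. The median log2 fold change was -0.14, and in 0 of 16 were the CPM ranges apart, a share not counted over all genes. DESeq2 and limma-voom also called 0 higher. By edgeR 4 of 16 had an unadjusted p below 0.05, all 4 with a value below 0. Over all 13971 genes tested, 5739 had such a p in either direction. Pars2, the mitochondrial prolyl enzyme, fell by 0.51 ± 0.17 (adjusted p = 0.019), and Iars2, the isoleucyl enzyme, fell by 0.16 ± 0.060 (adjusted p = 0.037). Both calls were lost without oxidative WT library 4, where Pars2 stood at -0.43 (adjusted p = 0.065) and Iars2 at -0.14 (adjusted p = 0.12). The call of Pars2 was also lost without glycolytic WT library 3 (-0.34, adjusted p = 0.092), and that of Iars2 without oxidative WT library 3 or glycolytic WT library 1, 2 or 5.

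The summed immune marker level was apart between these 2 groups, and 13 of 15 immune markers were called higher in oxidative WT. All 8 fibroblast markers were also called higher there, and 5 of 9 pericyte and smooth muscle markers lower. Of 15 muscle fibre markers 12 were called higher and 1 lower, and of 8 endothelial markers 1 higher and 3 lower. The part of these 4 lists in the result was not tested. With the immune level as a covariate, 2 cytosolic synthetases were called higher in place of 14, and the values of Mars, Wars and Yars turned to -0.54, -0.30 and -0.08, none of them called. Over all genes, this fit called 1368 in either direction in place of 4520. In the same fit Vars, not called without the covariate (-0.09), was called lower (-2.10, adjusted p = 4.7e-05), and the call of Qars was lost (-0.57, adjusted p = 0.33). The muscle of origin and the immune level cannot be told apart in these WT groups. In bulk samples fewer cells of a type and less RNA per cell cannot be told apart either.

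Deletion of Atf4 was compared first in the oxidative muscle, where the WT level was high. Of 20 cytosolic synthetases, 16 fell, where 17.4% of all genes tested fell, and 2 rose, where 14.6% of all genes rose, with a median log2 fold change of -1.38 against 0.02 over all genes. The count of 16 stood both without oxidative ECKO libraries 1 to 3 and without libraries 4 and 5. Every library in either set had Xist far above the oxidative WT level, so these fits do not separate sex from genotype. Cars fell most, to 21.9% of its WT level, by 2.20 ± 0.066 on the log2 scale (adjusted p = 1.6e-19). Gars was left at 25.9% of WT, Nars and Yars each at 29.7%, Iars at 30.6%, Aars at 30.9%, Tars at 33.9%, Sars at 35.2%, Lars at 37.6%, Mars at 38.1% and Rars at 38.8%. Eprs fell to 44.6%, Wars to 59.8%, Farsb to 77.3%, Dars, the aspartyl enzyme, to 86.1% and Kars to 86.9%. With the immune level as a covariate 11 of the 16 were still called lower, and Dars, Farsb, Kars, Mars and Wars were not. Over all genes, this fit called 1727 in either direction in place of 4470. The summed immune level was apart between these 2 groups as well, so genotype and immune level cannot be told apart in them. Of the pericyte and smooth muscle markers 6 of 9 were called higher in oxidative ECKO than in oxidative WT, as were 7 of 15 muscle fibre markers. All 14 immune markers tested and all 4 Y-linked genes were called lower, and of 8 endothelial markers 2 were called higher and 2 lower. The part of these markers in the result was not settled by the immune covariate and was not tested otherwise.

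**Figure D2:**
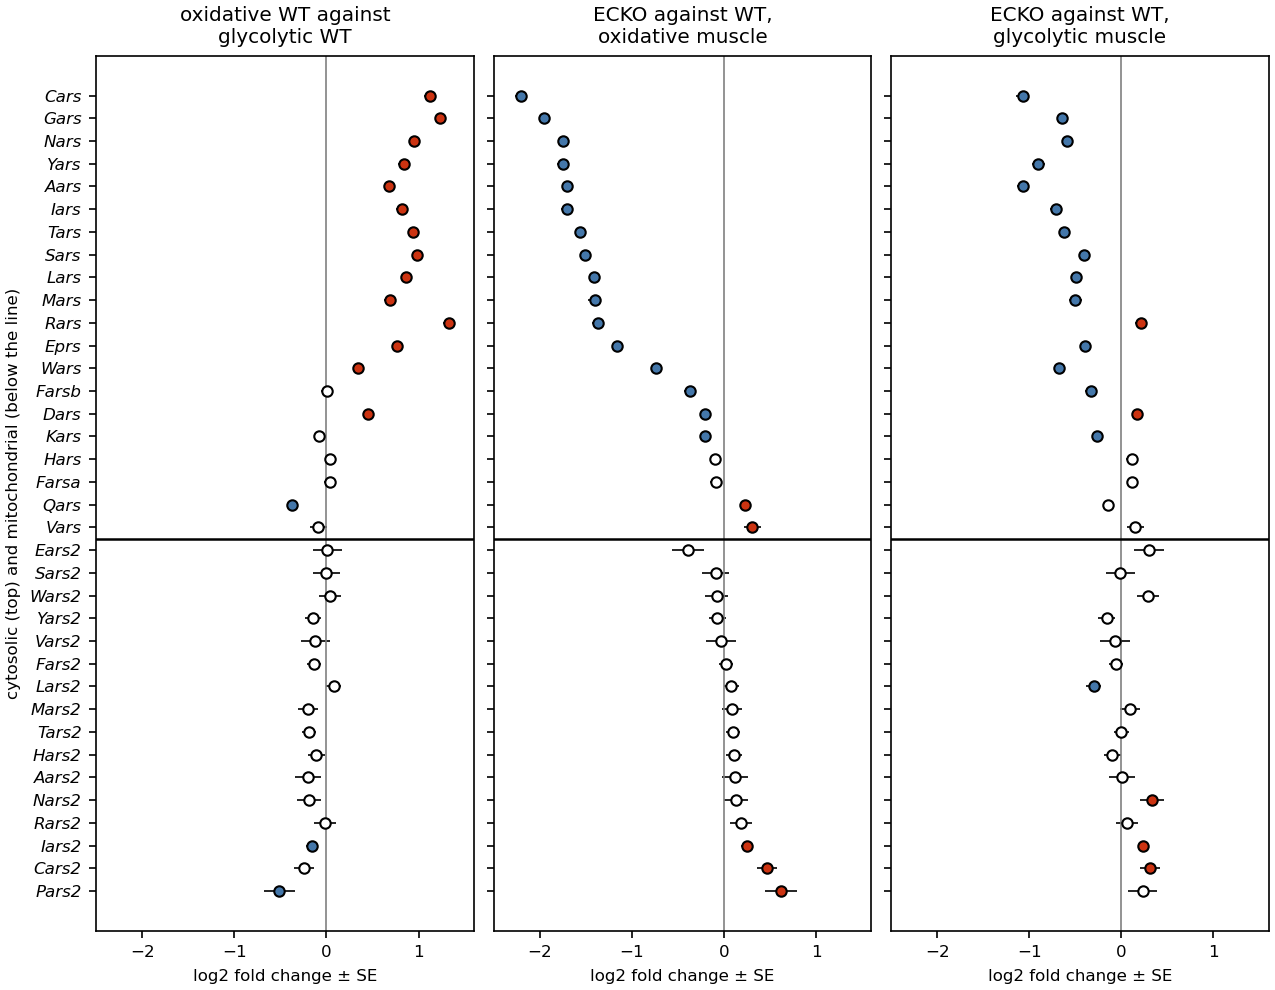
Log2 fold change with its SE for every synthetase in 3 comparisons, cytosolic genes above the line and mitochondrial genes below, ordered by the change in oxidative muscle. Filled red points were called higher and filled blue points lower by edgeR at an adjusted p below 0.05, and open points were not called. The cytosolic points run from -2.20 to 0.31 for the deletion in oxidative muscle, and the mitochondrial ones from -0.39 to 0.62.

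Nars had the smallest adjusted p of the class (3.3e-21, edgeR). Its oxidative WT libraries held 293, 314, 298, 305 and 314 CPM and its oxidative ECKO libraries 94.1, 94.3, 92, 86.5 and 85.7 CPM. Every ECKO library was far below the lowest WT library, and the spread within each group was small. Gars, the glycyl enzyme of both compartments and a gene of inherited peripheral neuropathy in people, had 359, 383, 404, 375 and 354 CPM in oxidative WT and 101, 101, 102, 82.6 and 98 CPM in oxidative ECKO. The ranges were far apart, and ECKO library 4 lay below the other 4. Cars, at 107 to 109 CPM in oxidative WT, had 24.5, 23, 25.1, 25.7 and 20.5 CPM in oxidative ECKO. No ECKO library came near the WT range.

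Tars, the threonyl enzyme, had 142, 162, 156, 151 and 147 CPM in oxidative WT and 49.8, 52.9, 51, 49.6 and 53.3 CPM in oxidative ECKO. Sars had 228, 245, 262, 243 and 234 CPM in WT and 89.3, 89.4, 82, 82.7 and 82.8 CPM in ECKO. Both genes had ECKO libraries within a few CPM of each other and well below every WT library. Aars, the alanyl enzyme, had 170, 199, 198, 184 and 181 CPM in WT and 56.3, 63, 58, 54 and 56.2 CPM in ECKO. Its ranges were apart as well, but part of its reads may be assigned to another gene. Exosc6, a subunit of the RNA exosome, sits inside the Aars locus and is transcribed in the same direction, and 22.7% of the 31-base words of the transcript Aars-201 also occur in Exosc6. Exosc6 was listed at 0 in the oxidative WT libraries and had a mean of 12.9 CPM in oxidative ECKO. The counts of both genes together gave 186 ± 12.2 (SD, n = 5) CPM in oxidative WT and 70.4 ± 3.26 CPM in oxidative ECKO, a log2 fold change of -1.41 where Aars alone gave -1.70.

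Qars and Vars rose while the rest of the class fell or was not called. Qars had 43.2, 51.3, 43.7, 40.9 and 46.8 CPM in oxidative WT and 51.6, 55.4, 53.9, 52.3 and 51 CPM in oxidative ECKO (0.23 ± 0.059, adjusted p = 0.0037, edgeR). The highest WT library lay just above the lowest ECKO library, so the ranges overlapped. Vars had 62.6, 73.5, 77, 69.6 and 79.4 CPM in oxidative WT and 99.9, 111, 93.8, 74.6 and 71.1 CPM in oxidative ECKO (0.31 ± 0.093, adjusted p = 0.013). Only ECKO libraries 1 to 3, the libraries with 32.2 to 65.6 CPM of Y-linked RNA, lay above the WT range, while libraries 4 and 5 lay inside it. Without libraries 1 to 3 the value of Vars was 0.00 (adjusted p = 0.98), and without libraries 4 and 5 it was 0.49 (adjusted p = 6.8e-06). The call of Qars was also lost without libraries 1 to 3 (0.20, adjusted p = 0.066), and with an offset for effective transcript length neither gene was called (0.15 for Qars and 0.13 for Vars). Vars was not called without ECKO library 2 either (0.23, adjusted p = 0.052). With the immune level as a covariate the call of Qars was lost (0.38, adjusted p = 0.4), while Vars had 1.85 (adjusted p = 4.6e-06).

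Farsa and Hars were not called. Farsa, the alpha subunit of the phenylalanyl enzyme, had 51.6, 58.2, 54.6, 55.2 and 52.7 CPM in oxidative WT and 52.7, 57.1, 51.8, 44.1 and 50.5 CPM in oxidative ECKO. Hars had 66.9, 63, 64.3, 68.4 and 56.7 CPM in WT and 61.7, 60.8, 59.3, 62.3 and 55 CPM in ECKO. The ranges of both overlapped, with values of -0.09 ± 0.064 and -0.10 ± 0.054. Hars was called lower without oxidative WT library 5 (-0.14, adjusted p = 0.043). Farsb, the beta subunit, fell by 0.37 ± 0.067 with ranges apart, so the 2 subunits of 1 enzyme had different calls. Farsb overlaps Sgpp2 on the opposite strand and Hars overlaps Hars2 head to head, and the sources used here do not say how strand was handled when reads were assigned.

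**Figure D3:**
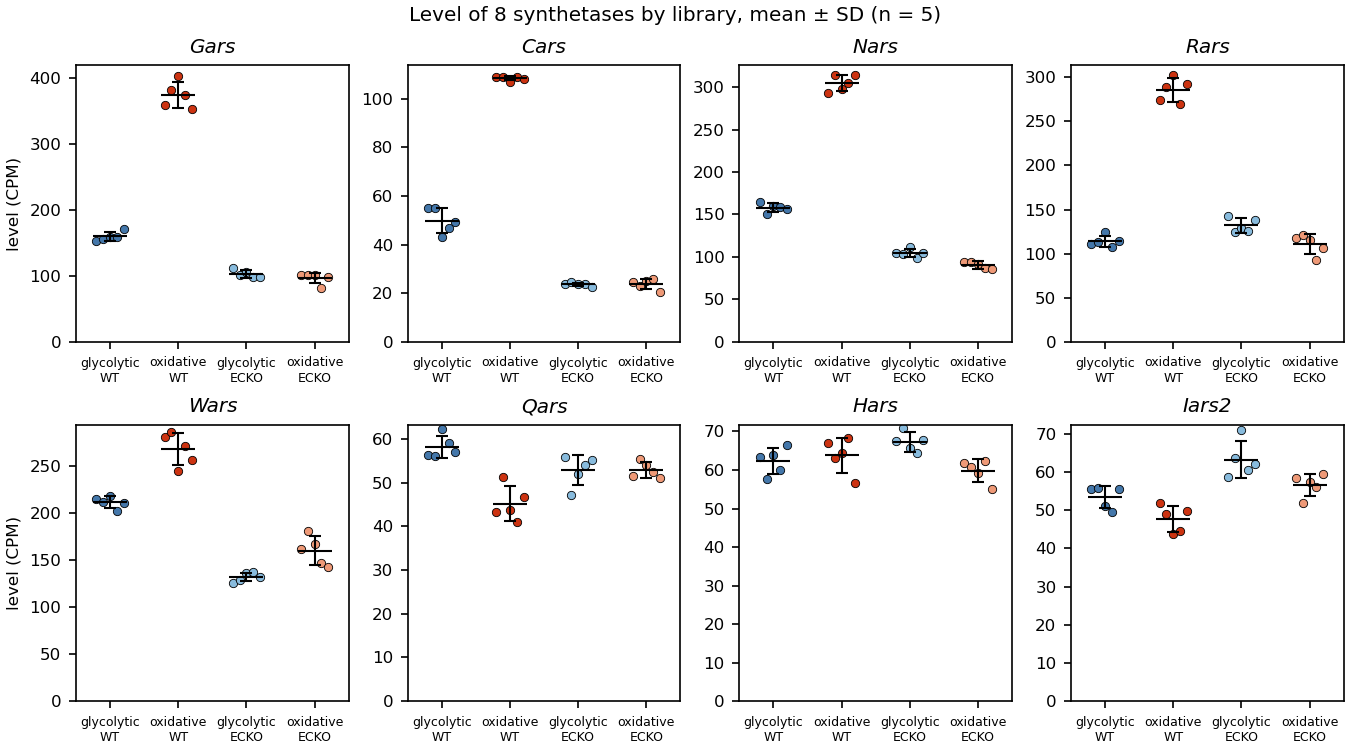
CPM of 8 synthetases in the 20 libraries by group, with points for libraries, the long bar for the group mean and the error bar for ± 1 SD (n = 5), each axis starting at 0. Gars, Cars and Nars were highest in oxidative WT and lower in both ECKO groups than in either WT group. Rars stood at 132 and 111 CPM in glycolytic and oxidative ECKO, near its mean of 114 CPM in glycolytic WT, and all libraries of Qars, Hars and Iars2 lay between 40.9 and 71.1 CPM.

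Sequence upstream of the genes was examined because the cytosolic members moved together and the deleted gene is a transcription factor. ATF4 binds DNA as a dimer with C/EBP family partners at composite elements whose core can be written TGATGNAA. RefSeq promoter windows on GRCm38.p6, 250 bases before to 50 after a gene's start, were found for 12 cytosolic and 14 mitochondrial members. The core occurred on either strand in 5 of the 12 cytosolic windows, or 41.7%, in 0 of the 14 mitochondrial windows and in 4.51% of the windows of 27025 genes. The 5 were Gars, Tars, Aars, Iars and Yars, and Aars held it at 2 places. Counted from the start, where the first transcribed base is 1 and the base before it -1, the first base of the core lay at -30 in Gars, -15 in Tars, 4 in Yars, 8 in Iars and -112 and 10 in Aars. With a narrower window of 150 bases before the start the counts were again 5 and 0, and 3.15% of genes held it. A match of these letters is a description of the window and says nothing about binding, and a window without it says only that these letters are not there.

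The 250 bases before the start are printed for the 3 cytosolic members with the smallest adjusted p in oxidative muscle that had an entry, and for the mitochondrial member chosen in the same way. The core is in capitals. Gars lies at chr6:55037751-55038000 on the plus strand, Tars at chr15:11399659-11399908 on the minus strand, Sars at chr3:108445260-108445509 on the minus strand and Cars2 at chr8:11550772-11551021 on the minus strand, all on GRCm38.p6 and written 5′ to 3′ in the direction of transcription. Gars and Tars hold the core within 30 bases of the start, and Sars, which fell to 35.2% of its WT level, does not hold it in this window, nor does Cars2.
Gars: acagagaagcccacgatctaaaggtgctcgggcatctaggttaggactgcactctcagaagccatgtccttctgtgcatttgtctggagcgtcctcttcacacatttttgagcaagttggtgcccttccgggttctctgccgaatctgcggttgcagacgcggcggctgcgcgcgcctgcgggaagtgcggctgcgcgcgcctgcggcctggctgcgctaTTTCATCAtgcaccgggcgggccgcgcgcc
Tars: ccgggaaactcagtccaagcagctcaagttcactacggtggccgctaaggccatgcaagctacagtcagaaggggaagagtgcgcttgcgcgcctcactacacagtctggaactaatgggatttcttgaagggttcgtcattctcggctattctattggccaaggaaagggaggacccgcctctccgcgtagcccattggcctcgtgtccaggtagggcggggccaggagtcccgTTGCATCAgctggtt
Sars: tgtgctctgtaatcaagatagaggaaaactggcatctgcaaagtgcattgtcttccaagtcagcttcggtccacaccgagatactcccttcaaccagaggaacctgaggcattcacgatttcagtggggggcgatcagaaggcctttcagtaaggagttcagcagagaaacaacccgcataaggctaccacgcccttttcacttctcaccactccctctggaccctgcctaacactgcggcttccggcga
Cars2: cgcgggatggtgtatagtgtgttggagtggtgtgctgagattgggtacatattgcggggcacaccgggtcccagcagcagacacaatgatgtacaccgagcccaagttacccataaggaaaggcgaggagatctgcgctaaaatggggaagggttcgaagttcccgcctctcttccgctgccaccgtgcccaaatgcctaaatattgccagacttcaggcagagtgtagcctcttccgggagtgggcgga

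In glycolytic muscle the deletion also lowered most of the cytosolic class, from a lower starting level. There 14 of 20 fell, where 15.1% of all genes fell, and 2 rose, where 13.9% of all genes rose, with a median log2 fold change of -0.45. The 14 were called with the immune level as a covariate as well, and so was Vars, which then rose (0.51, adjusted p = 1.8e-05) in place of 0.15 without a call. Aars, counted without Exosc6, and Cars fell most, each to 47.6% of WT (-1.07 ± 0.060 and -1.07 ± 0.069). Yars fell to 53.6% of its WT level, Iars to 61.1%, Wars to 62.4%, Gars to 64.4%, Tars to 65.2%, Nars to 66.4%, Mars to 70.6%, Lars to 70.8%, Sars to 75.2%, Eprs to 76.3%, Farsb to 80% and Kars to 83.3%. Rars rose to 116% of WT (0.21 ± 0.061, adjusted p = 0.0093) and Dars to 112% (0.17 ± 0.052, adjusted p = 0.016). The call of Dars was lost without glycolytic ECKO library 3 (0.12, adjusted p = 0.11), without glycolytic WT library 4 (0.14, adjusted p = 0.058) and without the low-count filter. In glycolytic ECKO 7 of 8 endothelial markers were called lower and 4 of 8 fibroblast markers higher. Pericyte and smooth muscle markers, muscle fibre markers and Y-linked RNA also differed between these groups, and the part of all these in the result was not tested.

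Nars had 165, 150, 160, 159 and 156 CPM in glycolytic WT and 105, 104, 112, 98.4 and 105 CPM in glycolytic ECKO. Gars had 153, 156, 160, 160 and 172 CPM in WT and 112, 101, 106, 98 and 98.8 CPM in ECKO. For both genes all ECKO libraries lay below all WT libraries. Cars, at 43 to 55.2 CPM in WT, had 23.8, 24.5, 23.9, 23.8 and 22.7 CPM in ECKO. Tars had 77.2, 81.2, 81.3, 77.6 and 76.4 CPM in WT and 55.7, 48.5, 46.6, 52.1 and 53.6 CPM in ECKO. These ranges were apart too. Sars had 122, 126, 123, 118 and 124 CPM in WT and 86.9, 106, 89.7, 88 and 90.4 CPM in ECKO. Its ECKO library 2 stood above the other 4 and still below every WT library. Aars had 114, 110, 127, 111 and 119 CPM in WT and 50.9, 61.1, 54.5, 59.2 and 50.6 CPM in ECKO, so that every ECKO library had less than 62 CPM. Together with Exosc6 the fall of Aars was 0.80 on the log2 scale, from 121 to 69 CPM, a smaller fall than that of Yars.

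Rars, which moved the other way, had 111, 113, 124, 107 and 114 CPM in glycolytic WT and 143, 124, 129, 126 and 138 CPM in glycolytic ECKO. The ranges met at 124 CPM as rounded and were apart in the unrounded values. Qars had 55.9, 47.1, 52, 54.1 and 55.2 CPM in glycolytic ECKO against 56 to 62.2 CPM in WT and was not called (-0.14 ± 0.059, adjusted p = 0.084). Vars had 76.7, 66.9, 87.9, 76.1 and 78.8 CPM in glycolytic WT and 87.6, 89.6, 87, 79.4 and 85.7 CPM in ECKO, with overlapping ranges. Neither Farsa, at 48.5 to 59.9 CPM in WT and 54.9 to 61.2 in ECKO, nor Hars, at 57.7 to 66.4 CPM in WT and 64.4 to 71 in ECKO, was called.

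The size of the change differed between the muscles for most of the class. The interaction, which is the log2 change with deletion in oxidative muscle minus that in glycolytic muscle, was called below 0 for 13 of 20 cytosolic genes, where 12.5% of all genes were, and above 0 for 1, where 10.1% of all genes were, with a median of -0.81. Rars had the lowest value, -1.58 ± 0.086 (adjusted p = 2.5e-13, edgeR), since it fell by 1.37 in oxidative muscle and rose by 0.21 in glycolytic muscle. Gars (-1.31), Nars (-1.16), Cars (-1.13) and Sars (-1.10) followed. Qars was the gene called above 0 (0.36 ± 0.083, adjusted p = 0.0019), and with an offset for effective transcript length it was not called (0.31, adjusted p = 0.082). Wars fell by 0.74 ± 0.055 in oxidative and by 0.68 ± 0.056 in glycolytic muscle, with an interaction of -0.06 ± 0.078 that was not called (-0.21, adjusted p = 0.043, without oxidative ECKO libraries 1 to 3). Aars had a called interaction of -0.63 ± 0.084. With the immune level as a covariate 9 of the 13 were called, and Aars, Dars, Mars and Yars were not. Over all genes, this fit called 1802 interactions in place of 3163. The call of Qars was lost as well (0.48, adjusted p = 0.14), and Vars, not called without the covariate (0.15), was called above 0 (1.34, adjusted p = 2.7e-05). Without oxidative ECKO libraries 1 to 3 Farsa was called below 0 (-0.31, adjusted p = 0.023), and without libraries 4 and 5 Vars was called above 0 (0.35, adjusted p = 0.009). These comparisons share the oxidative WT libraries with the comparison of muscles, so a gene high in that group enters both.

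Between the ECKO groups, cytosolic synthetases differed by at most 0.27 on the log2 scale. Of 20, 3 were called lower in oxidative ECKO, where 10.1% of all genes were, and 1 higher, where 8.31% of all genes were, and all values lay between -0.25 and 0.27 with a median of -0.03. The same 20 genes ranged from -0.37 to 1.33 between the WT muscles. Rars (-0.25 ± 0.061), Nars (-0.21 ± 0.044) and Hars (-0.17 ± 0.055) were lower and Wars (0.27 ± 0.056) was higher. Cars had a mean of 23.8 ± 2.07 (SD, n = 5) CPM in oxidative ECKO and 23.7 ± 0.641 in glycolytic ECKO, and Tars had a mean of 51.3 CPM in both. The call of Wars was lost without oxidative ECKO libraries 1 to 3 (0.13, adjusted p = 0.14), that of Rars without libraries 4 and 5 (-0.14, adjusted p = 0.079), and that of Hars without either set (-0.20 and -0.13, adjusted p = 0.069 and 0.16) and in 6 of 10 fits that left out 1 library (adjusted p up to 0.096). Mars, not called with all libraries (-0.21, adjusted p = 0.053), was called lower without libraries 1 to 3 (-0.42, adjusted p = 0.00013). So was Farsa (-0.28, adjusted p = 0.017), which had -0.17 with all libraries, and Vars was called higher without libraries 4 and 5 (0.26, adjusted p = 0.015). With the immune level as a covariate Vars (-0.77, adjusted p = 0.00053) and Mars (-0.71, adjusted p = 0.0012) were called lower in oxidative ECKO. Relative to glycolytic WT, oxidative ECKO held 47.6% of Cars, 49.5% of Aars, 53.1% of Yars and 54.1% of Iars, but 97.4% of Rars. Counted with Exosc6, Aars had a mean of 121 CPM in glycolytic WT and 70.4 CPM in oxidative ECKO, a larger share than that of Yars or Iars.

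The synthetases of the multi-enzyme complex did not move as a block. In mammals the complex joins Eprs, Iars, Lars, Mars, Qars, Rars, Kars and Dars around the scaffold proteins encoded by Aimp1, Aimp2 and Eef1e1. In oxidative muscle Iars (-1.70), Lars (-1.41), Mars (-1.40), Rars (-1.37) and Eprs (-1.16) fell strongly with deletion, Dars (-0.21) and Kars (-0.20) fell slightly, and Qars (0.23) rose. Mars, the methionyl enzyme, overlaps Ddit3, another stress-response gene, on the opposite strand, and shared 38 of its 3467 words with it. Ddit3 itself fell by 0.44 ± 0.080 in oxidative muscle. Of the scaffold genes, Aimp1 fell by 0.35 ± 0.076 in oxidative muscle (adjusted p = 0.00064) and was not called in glycolytic muscle. Aimp2 had a value of 0.10 in oxidative muscle, not called, and rose by 0.77 ± 0.079 in glycolytic muscle (adjusted p = 2.5e-08), from 38.4 ± 1.92 to 65.5 ± 3.76 CPM. Eef1e1 rose by 0.58 ± 0.087 in oxidative over glycolytic WT, fell by 0.74 ± 0.089 with deletion in oxidative muscle and rose by 0.32 ± 0.089 with deletion in glycolytic muscle, the same 3 directions as Rars.

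Eef1e1 had 31.2, 43.2, 37.3, 31.4 and 32.4 CPM in oxidative WT and 23.5, 20.8, 21, 20.4 and 18.8 CPM in oxidative ECKO. Its glycolytic libraries held 26.1, 21.8, 23.5, 24 and 21.8 CPM in WT and 28, 33.3, 28.9, 26.4 and 29.4 CPM in ECKO. The ranges were apart in both muscles, in opposite directions, and the interaction was -1.06 ± 0.13 (adjusted p = 4.1e-07, edgeR).

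Wars had 2 main transcripts, which start at different positions. The tryptophanyl enzyme is induced by interferon, and shorter forms of the human protein inhibit the growth of blood vessels. Wars-205, which starts at chr12:108893198 on the minus strand of GRCm38, was estimated at a mean of 67.5 TPM in glycolytic WT (62.5 to 74.2 over libraries), 75.7 in oxidative WT (59.5 to 93.3), 35.8 in glycolytic ECKO (26.4 to 43.4) and 46.3 in oxidative ECKO (36.8 to 55.7). Its ranges were apart between genotypes in each muscle. Wars-201, which starts upstream at chr12:108894174, was estimated at a mean of 32.8, 34.2, 31.3 and 31 TPM in the same order, with overlapping ranges throughout. The transcripts overlap, so the split between them is an estimate, and it was not tested. As a gene, Wars stood at 212 ± 5.97 (SD, n = 5) CPM in glycolytic WT, 268 ± 17 in oxidative WT, 132 ± 4.73 in glycolytic ECKO and 160 ± 15.7 in oxidative ECKO.

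With deletion of Atf4 the values of the mitochondrial synthetases lay between -0.39 and 0.62 on the log2 scale in oxidative muscle and between -0.30 and 0.33 in glycolytic muscle. In oxidative muscle 3 of 16 rose, against 14.6% of all genes, none fell, against 17.4%, and the median was 0.10. Between the ECKO groups Lars2 was called higher in oxidative muscle, against 8.31% of all genes, and Ears2 and Nars2 lower, against 10.1%. Nars2 ranged from 7.33 to 11.3 CPM in oxidative ECKO and from 10.5 to 13.2 CPM in glycolytic ECKO, with overlap (-0.39, adjusted p = 0.033). That call was lost in 6 of 10 fits that left out 1 library (adjusted p up to 0.11) and without oxidative ECKO libraries 4 and 5 (-0.30, adjusted p = 0.18). It was lost too with the length offset (-0.17, adjusted p = 0.6), with the immune covariate (-0.62, adjusted p = 0.23) and without the low-count filter (-0.37, adjusted p = 0.082). In glycolytic muscle 3 rose, against 13.9% of all genes, and 1 fell, against 15.1%, with a median of 0.03. DESeq2 and limma-voom also called 0 lower in oxidative muscle. By edgeR 4 of 16 had an unadjusted p below 0.05 there in either direction, as had 5723 of all 13971 genes tested. Pars2, Cars2 and Iars2 rose in oxidative muscle, by 0.62 ± 0.17 (adjusted p = 0.0054), 0.47 ± 0.11 (adjusted p = 0.0017) and 0.25 ± 0.060 (adjusted p = 0.0020). In glycolytic muscle Iars2 rose by 0.24 ± 0.060, Cars2 by 0.31 ± 0.11 and Nars2, the asparaginyl enzyme, by 0.33 ± 0.13 (adjusted p = 0.049). The call of Nars2 in glycolytic muscle was lost in 7 of 10 fits that left out 1 library (adjusted p up to 0.15). With the immune level as a covariate none of these rises was called.

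Cars2, the mitochondrial cysteinyl enzyme, had 10.2, 7.9, 9.5, 11.2 and 9.4 CPM in oxidative WT and 14.1, 13.5, 14.5, 11.7 and 13.2 CPM in oxidative ECKO. Every ECKO library was above every WT library, while cytosolic Cars was left at 21.9% of WT in the same libraries. In glycolytic muscle Cars2 had 13, 10.9, 12.6, 10.4 and 10.5 CPM in WT and 11.6, 13.1, 14, 14.5 and 17.5 CPM in ECKO, with overlap, and that call was lost in 6 of 10 fits that left out 1 library (adjusted p up to 0.14). The call in oxidative muscle was lost without ECKO libraries 1 to 3 (0.36, adjusted p = 0.072). Cars2 overlaps Naxd on the opposite strand, which had values of -0.13 and -0.20 in the 2 muscles.

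Iars2 had 51.8, 49.1, 43.9, 44.5 and 49.7 CPM in oxidative WT and 58.4, 51.8, 57.5, 56.1 and 59.4 CPM in oxidative ECKO. ECKO library 2 lay at the top of the WT range and the other 4 above it. In glycolytic muscle Iars2 had 55.5, 55.7, 51.2, 49.6 and 55.6 CPM in WT and 58.7, 63.8, 71.1, 60.5 and 62.1 CPM in ECKO, with the ranges apart. Iars2 shares 23.6% of its 31-base words with other genes, mostly with Rab3gap2 on the opposite strand, which was not called in any comparison. Pars2 had 3.26, 3.79, 3.28, 2.7 and 3.98 CPM in oxidative WT and 4.24, 5.79, 5.33, 5.26 and 5.44 CPM in oxidative ECKO, with the ranges apart and no call with an offset for effective transcript length (0.47, adjusted p = 0.13).

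Ears2, the mitochondrial glutamyl enzyme, which also charges the glutamine tRNA there with glutamate before an amidotransferase converts it, had 4.48, 2.95, 4.82, 4.46 and 5.21 CPM in oxidative WT and 2.97, 2.95, 3.57, 3.73 and 3.52 CPM in oxidative ECKO. It had 3.73, 4.33, 4.7, 4.23 and 4.89 CPM in glycolytic WT and 5.51, 4.87, 4.09, 5.92 and 6.78 CPM in glycolytic ECKO. Neither change with deletion was called (-0.39 ± 0.17 and 0.30 ± 0.16), although the first was without oxidative WT library 2 (-0.50, adjusted p = 0.021). The interaction was called (-0.70 ± 0.23, adjusted p = 0.031) and lost in 7 of 20 fits that left out 1 library (adjusted p up to 0.065) and without oxidative ECKO libraries 1 to 3 (-0.59, adjusted p = 0.14). All 5 oxidative ECKO libraries lay below all 5 glycolytic ECKO libraries (-0.68 ± 0.17, adjusted p = 0.0045), a call that was lost without oxidative ECKO libraries 1 to 3 (-0.58, adjusted p = 0.083).

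Lars2, the mitochondrial leucyl enzyme, needs a separate reading. It stood at 2320, 2000, 2250, 1985 and 2367 CPM in glycolytic WT, 2268, 2197, 2325, 1998 and 2715 in oxidative WT, 2089, 1774, 1568, 1593 and 1853 in glycolytic ECKO and 2554, 2790, 2291, 2262 and 2225 in oxidative ECKO. Its mean TPM of 776 to 934 was the highest of the 36 genes in every group. Its fall in glycolytic muscle (-0.30 ± 0.081, adjusted p = 0.0066) and its higher level in oxidative over glycolytic ECKO (0.45 ± 0.081, adjusted p = 0.00023) were called. Its called interaction was lost without oxidative ECKO libraries 1 to 3 (0.27, adjusted p = 0.11). Nearly all of this signal came from transcripts not annotated as protein-coding: Lars2-209, annotated as a target of nonsense-mediated decay, and Lars2-205, with a retained intron, together held 97.2% to 99.4% of the counts of the gene in each library. The protein-coding transcripts held 0.552% to 2.7%. Counted from these alone, Lars2 had a mean of 28.3, 25.1, 29.7 and 25 CPM in glycolytic WT, oxidative WT, glycolytic ECKO and oxidative ECKO, within the range of the other mitochondrial members, and none of its calls remained. Reads in exons that transcripts share are apportioned by estimation, so this low share is itself uncertain. Class sums are given without Lars2.

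Summed over the class, the 20 cytosolic genes reached 996 ± 19.8 (SD, n = 5) TPM in glycolytic WT, 1397 ± 76 in oxidative WT, 861 ± 8.45 in glycolytic ECKO and 785 ± 20.3 in oxidative ECKO. The 4 groups did not overlap. The 15 mitochondrial genes without Lars2 reached 136 ± 2.44 TPM in glycolytic WT, 108 ± 9.33 in oxidative WT, 153 ± 5.43 in glycolytic ECKO and 136 ± 5.66 in oxidative ECKO. Oxidative WT was the lowest group here and the highest for the cytosolic class. In the edgeR fit on counts, the 16 mitochondrial genes had a median log2 fold change of -0.14 between the WT muscles, with 2 called lower. The 2 units differ in size: Ears2 had a mean of 4.38 CPM in both WT groups but 2.38 TPM in glycolytic and 2.01 TPM in oxidative WT. The ratio of cytosolic to mitochondrial TPM was 7.31 ± 0.123, 12.9 ± 0.968, 5.63 ± 0.218 and 5.79 ± 0.245 in the same order, so the 2 ECKO groups overlapped each other and lay below both WT groups. TPM is a share of all RNA in a library, so a rise of other transcripts lowers it, and no test was made of these sums.

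**Figure D4:**
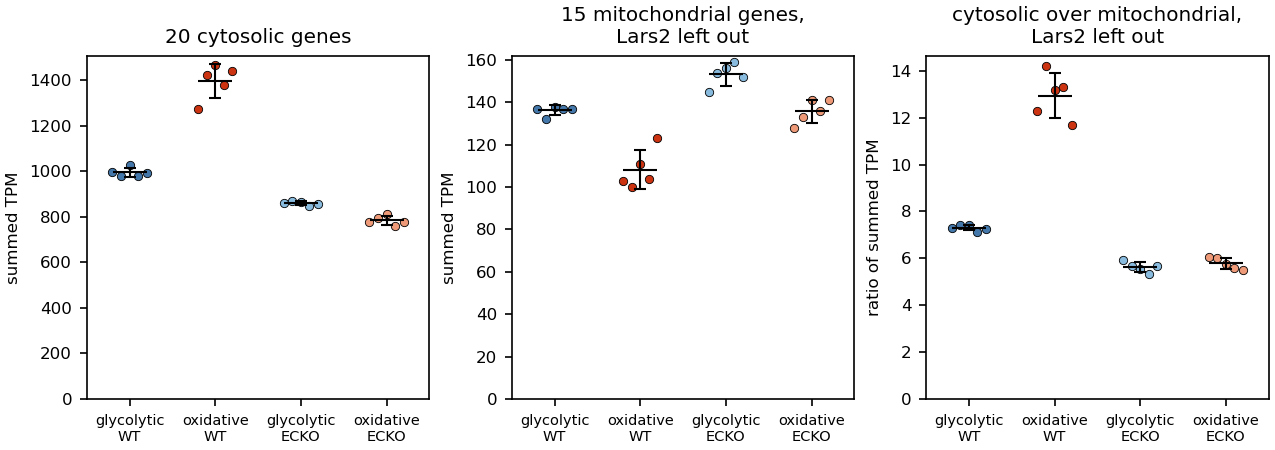
Summed TPM of the 20 cytosolic and of the 15 mitochondrial synthetases without Lars2, and their ratio, by library and group, with points for libraries, the long bar for the mean and the error bar for ± 1 SD (n = 5), all axes starting at 0. The ratio was 11.7 to 14.2 in oxidative WT, 7.14 to 7.43 in glycolytic WT and 5.33 to 6.05 in the 10 ECKO libraries.

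Other genes of tRNA charging were counted for context, on lists drawn up by role. Of 6 genes for charging and translation factors in the mitochondrion, 1 rose and 1 fell with deletion in oxidative muscle, 14.6% and 17.4% being the shares over all genes. Tufm, the mitochondrial elongation factor Tu that brings charged tRNAs to the ribosome, rose by 0.25 ± 0.050 in oxidative and by 0.22 ± 0.049 in glycolytic muscle (adjusted p = 0.00032 and 0.0012, edgeR). Tsfm, its exchange factor, fell by 0.27 ± 0.065 in oxidative muscle. Qrsl1, Gatb, Gatc and Mtfmt were not called with deletion in either muscle. Of 10 other genes of tRNA handling, 1 rose and 2 fell in oxidative muscle, and 1 rose and 3 fell in glycolytic muscle, where 13.9% and 15.1% were the shares over all genes. Between the WT muscles 2 of these 10 were called higher in oxidative muscle and 5 lower, where 16.4% and 15.9% of all genes were. Of the 6 mitochondrial genes 1 was called higher there and 3 lower.

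Xpot, which exports tRNA from the nucleus, moved in the directions of most cytosolic synthetases. It had 48.4, 51.7, 49.2, 51.7 and 51.9 CPM in glycolytic WT and 69.8, 100, 87.3, 89.1 and 86.3 CPM in oxidative WT, and in ECKO 39.7, 39.8, 38.7, 36.9 and 35.2 CPM in glycolytic and 38.3, 37.2, 39.3, 45.9 and 39.7 CPM in oxidative muscle. Both ECKO groups lay below both WT groups, with a fall of 1.11 ± 0.071 in oxidative and 0.41 ± 0.073 in glycolytic muscle. Trnt1, which adds the CCA end to tRNAs, had the directions of Rars, rising by 0.48 between the WT muscles, falling by 0.33 with deletion in oxidative muscle and rising by 0.27 in glycolytic muscle. Aarsd1, an editing protein that acts on mischarged alanine tRNA, had the opposite pattern to Aars in oxidative muscle, rising by 0.36 ± 0.069, and fell by 0.29 ± 0.068 in glycolytic muscle.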

How the data were processed

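The deposited tables, 1 for each library, list per transcript an estimated count, a TPM value and another column, the effective length in bases, all made by the authors. The submitters' processing notes name kallisto and DESeq2, without versions, and GRCh38.p13, a human build. The transcript IDs are mouse, and 128643 of 129439 were found in GENCODE M21 (GRCm38), with at most 0.221% of a library's counts unmatched. Per the labels' protocols, libraries were stranded and poly(A)-selected.

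Counts were summed per gene, rounded and tested with edgeR 4.0.16 in R 4.3.3 (quasi-likelihood test, TMM, filterByExpr, 20 libraries in 1 fit, Benjamini-Hochberg adjustment over 13971 genes, call at an adjusted p below 0.05). The SE is the size of the log2 fold change over the square root of F. Deposited TPM values were summed per gene. Alternatives were RLE, no filter, DESeq2 1.42.0, limma-voom 3.58.1, an effective length offset, the compared groups alone, a replicate block, an immune covariate and libraries left out. The code was tested on simulated counts. No 2 libraries held identical values.

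Members, lists and rules were chosen with earlier results of these data known. Values in every library are given for the 6 cytosolic and 4 mitochondrial members with the smallest adjusted p in oxidative muscle and for cytosolic members called against the majority or not called. Rars, Lars2, Eef1e1, Xpot and the Wars transcripts were added after their values were seen. Some genes of the related lists are not reported here and are left out of those lists' counts.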

Additional observations from a re-analysis of the deposited data

Results flagged for a closer look

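Of 144 groups of 5 values (36 genes in 4 groups), 6 held 1 library apart from the other 4 by Dixon's criterion, which chance alone reaches in about 1 in 20 groups. These were Eprs in glycolytic WT library 3 (95.5 CPM, the others 84.9 to 87.8), Gars in oxidative ECKO library 4 (82.6 CPM, the others 98 to 102), Kars in oxidative WT library 2 (118 CPM, the others 103 to 107), Sars in glycolytic ECKO library 2 (106 CPM, the others 86.9 to 90.4), Mars2 in oxidative WT library 2 (12.6 CPM, the others 17 to 18.7) and Vars2 in oxidative ECKO library 1 (8.7 CPM, the others 4.85 to 5.59).

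The effect of the deletion differed between the muscles, by the edgeR interaction test, for 16 synthetases. The log2 change in oxidative minus that in glycolytic muscle was -1.58 for Rars, -1.31 for Gars, -1.16 for Nars, -1.13 for Cars, -1.10 for Sars, -0.99 for Iars, -0.94 for Tars, -0.92 for Lars, -0.90 for Mars, -0.85 for Yars, -0.77 for Eprs, -0.63 for Aars and -0.38 for Dars. Qars had 0.36, and of the mitochondrial genes Ears2 had -0.70 and Lars2 0.37.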

How the results depend on the processing

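The cytosolic counts behind the comparisons of WT muscles, of deletion in either muscle and of the interaction (14 higher, 16 lower, 14 lower and 13 lower) were the same with RLE factors, DESeq2 and limma-voom. Leaving out 1 library gave cytosolic counts of 14 to 14 higher and 1 to 1 lower between WT muscles, 1 to 2 higher and 16 to 17 lower with deletion in oxidative muscle, 1 to 2 higher and 14 to 14 lower in glycolytic muscle, 1 to 1 higher and 2 to 5 lower between ECKO groups, and 1 to 1 higher and 13 to 14 lower for the interaction. For the mitochondrial class the same ranges were 0 to 0 and 0 to 3 between WT muscles, 3 to 3 and 0 to 1 in oxidative muscle, 1 to 4 and 1 to 1 in glycolytic muscle, 1 to 1 and 1 to 3 between ECKO groups, and 1 to 1 and 0 to 1 for the interaction.

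With the immune covariate, calls over all genes fell from 4520 to 1368 between WT muscles and from 4470 to 1727 in oxidative muscle. They fell from 4054 to 3349 in glycolytic muscle, from 2573 to 1542 between ECKO groups and from 3163 to 1802 for the interaction. The immune covariate left 2 cytosolic genes higher between WT muscles, 1 higher in oxidative muscle and 0 higher between ECKO groups. It left 0 mitochondrial calls in each direction that had any, apart from the interaction's higher call. It turned the value of Mars to -0.54, Wars to -0.30, Yars to -0.08 and Iars2 to 0.18 between WT muscles, Dars to 0.06 and Iars2 to -0.02 in oxidative muscle, and Vars to -0.77 between ECKO groups, where it was called lower (adjusted p = 0.00053). Vars was also called lower between WT muscles (-2.10, adjusted p = 4.7e-05) and higher in glycolytic muscle (0.51, adjusted p = 1.8e-05) and in the interaction (1.34, adjusted p = 2.7e-05). The length offset left 0 cytosolic genes higher in oxidative muscle and 0 in the interaction. Its mitochondrial counts were 0 lower between WT muscles, 1 higher and 0 lower in glycolytic muscle, 1 lower between ECKO groups and 0 either way in the interaction. Without the low-count filter, cytosolic genes higher in glycolytic muscle numbered 1, and mitochondrial counts were 0 lower between WT muscles, 1 higher in glycolytic muscle, 1 lower between ECKO groups and 0 lower in the interaction. The compared groups alone gave 1 mitochondrial gene lower between WT muscles. Without oxidative ECKO libraries 1 to 3, cytosolic genes higher were 0 in oxidative muscle and 0 between ECKO groups, and mitochondrial counts were 1 lower between ECKO groups and 0 either way in the interaction. Without libraries 4 and 5, cytosolic counts were 2 higher and 1 lower between ECKO groups and 2 higher in the interaction, and 1 mitochondrial gene was lower between ECKO groups. Chosen after seeing the data, Lars2 from protein-coding transcripts alone had values of 0.04 in glycolytic muscle, -0.23 between ECKO groups and -0.04 in the interaction, which left 0 mitochondrial genes lower in glycolytic muscle, 0 higher between ECKO groups and 0 higher in the interaction. The causes were not tested.

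No pairing by replicate number was seen: over 30 pairs with the same number, deviations from the group mean correlated between -0.208 and 0.112, with 1 pair over 0.1. What the numbers stand for is not given, and these correlations cannot tell whether libraries with the same number shared an animal or a batch. With the replicate block the cytosolic counts were again 14, 16, 14 and 13, and of the single genes Cars2 in glycolytic muscle was no longer called (0.31, adjusted p = 0.052). Low counts limit Pars2 and Ears2, at 2.7 to 7.09 CPM.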
